A study of Mus musculus with 36 samples.

Results

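The late neutrophil genes S100a8, S100a9, Ltf, Camp, Ngp and Lcn2 were followed through 8 fractions of hematopoietic stem and progenitor cells (HSPCs) of mouse bone marrow, as peaks of chromatin accessibility. Wherever peaks from any of the libraries shared 1 bp or more they were joined into a region, and a region belonged to one of these genes when its centre lay nearest to a transcription start site (TSS) of that gene among all protein-coding TSSs. By this rule 21 of 105005 regions belonged to the 6 genes, with 3 at S100a8, 6 at S100a9, 1 at Lcn2, 4 at Ngp, 2 at Camp and 5 at Ltf. The nearest gene need not be the gene that a region acts on. Of the 21 regions, 6 overlapped a TSS, 1 for each gene, 6 lay in introns and 9 were intergenic.

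ATAC-seq, which maps open chromatin through the insertion of adapters by a transposase, had been performed on 36 libraries, each from 20000 sorted cells of C57BL/6 mice. Young mice were 10 weeks old and aged mice 20 months old, and no group was treated or genetically modified. Hematopoietic stem cells (HSCs) had 4 libraries per age, and 2 libraries per age were made of each of the multipotent progenitors MPP1 to MPP4, the granulocyte-macrophage progenitor (GMP), the common lymphoid progenitor (CLP) and the progenitor of megakaryocytes and erythrocytes (MEP). The study describes female mice whose marrow was pooled by age and then sorted in duplicate, so p-values measure the spread between libraries, which may share a pool. All fractions other than CLPs were labelled IL-7- and were Lin- and c-kit+, where IL-7 stands for its receptor, against which the antibody was directed. HSCs and MPPs were Sca-1+, GMPs were Sca-1- FcgR+ CD34+, MEPs were Sca-1- FcgR- CD34-, and CLPs were IL-7+ with low Sca-1 and c-kit. HSCs were CD34- CD150+ CD48- Flt3-, MPP1 differed from them by CD34+, MPP2 by CD34+ and CD48+, MPP3 were CD34+ CD150- CD48+ Flt3-, and MPP4 were as MPP3 but Flt3+. Cells bound by the lineage antibodies were gated out, and these antibodies included Gr-1, against a surface marker of maturing neutrophils.

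Neutrophils fill their granules in waves, and each wave carries the proteins that the maturing cell makes at that time. Primary granule proteins such as myeloperoxidase are made at the promyelocyte stage, close to the GMP, whereas the secondary granule proteins and S100A8 and S100A9 are made later, from the myelocyte stage on, under C/EBP factors and C/EBPε in particular. The question put to these data was whether the GMP, which precedes that stage, already carries open chromatin at the late genes. The lists hold accessibility and no transcript levels, so only the chromatin side of this question was measured here, and whether the genes were expressed in the same sorts was not analysed here.

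S100a8 and S100a9, the subunits of calprotectin, lie in opposite orientation on chromosome 3 with 22.6 kb between their 3′ ends. Camp (cathelicidin antimicrobial peptide), Ngp (neutrophilic granule protein) and Ltf (lactoferrin, an iron-binding protein of secondary granules) lie on chromosome 9, with 570.1 kb from Camp to Ngp and 596.3 kb from Ngp to Ltf. Lcn2 (lipocalin 2, which binds bacterial siderophores) lies on chromosome 2.

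The promoter sequences are shown because each overlaps a TSS region that was tested below. They are the stretches without any annotated exon within 149 bp of the median summit of the TSS region, ending at the base before a start site, and are read 5′ to 3′ on the strand of the gene from build GRCm38 (mm10). Capitals mark matches to the motifs searched on both strands, which were TTGCNNAA for C/EBP, GAGGAAGT for PU.1, TGTGGTTT or TGCGGTTT for RUNX, CCGGAAGT for ETS, and the shorter letters AGATAA for GATA. GFI1 was searched as AAATCA. The AP-1 motif was TGANTCA. The PU.1 and ETS motifs share their last 6 letters, and the matches shown do not overlap each other. The stretches are S100a8 chr3:90668845-90668977 (+), S100a9 chr3:90695722-90695998 (-), Lcn2 chr2:32387798-32387850 (-), Ngp chr9:110419571-110419746 (+), Camp chr9:109849618-109849795 (-) and Ltf chr9:111019022-111019270 (+).
S100a8 promoter: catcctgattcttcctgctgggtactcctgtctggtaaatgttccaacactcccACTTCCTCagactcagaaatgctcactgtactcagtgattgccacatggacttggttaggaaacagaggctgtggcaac
S100a9 promoter: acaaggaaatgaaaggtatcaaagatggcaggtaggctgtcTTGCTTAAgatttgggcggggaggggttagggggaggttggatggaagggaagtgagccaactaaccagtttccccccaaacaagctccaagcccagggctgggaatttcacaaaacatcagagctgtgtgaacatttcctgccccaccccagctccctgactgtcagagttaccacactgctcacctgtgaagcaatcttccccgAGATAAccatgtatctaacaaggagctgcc
Lcn2 promoter: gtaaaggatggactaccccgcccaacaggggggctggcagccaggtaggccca
Ngp promoter: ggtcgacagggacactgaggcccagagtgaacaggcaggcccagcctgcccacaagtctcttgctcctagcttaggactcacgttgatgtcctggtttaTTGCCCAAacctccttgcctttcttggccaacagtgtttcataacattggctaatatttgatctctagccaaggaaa
Camp promoter: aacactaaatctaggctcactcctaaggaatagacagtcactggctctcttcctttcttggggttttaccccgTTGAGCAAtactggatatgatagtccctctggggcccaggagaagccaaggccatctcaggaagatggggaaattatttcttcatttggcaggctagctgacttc
Ltf promoter: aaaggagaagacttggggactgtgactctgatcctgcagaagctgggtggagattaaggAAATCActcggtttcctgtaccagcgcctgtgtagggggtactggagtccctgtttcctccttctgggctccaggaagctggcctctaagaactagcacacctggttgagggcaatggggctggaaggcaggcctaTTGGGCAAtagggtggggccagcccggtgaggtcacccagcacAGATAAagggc

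The capitals are a C/EBP match in the S100a9, Ngp, Camp and Ltf stretches (that of S100a9 lies over 100 bp from the summit), a PU.1 match in that of S100a8, a GATA match in those of S100a9 and Ltf and a GFI1 match in that of Ltf. Within 100 bp of the median summit, the C/EBP motif was found in 10 of the 21 regions and in 13.2% of 104825 regions on the main chromosomes. Of the 12 regions that were called in all 4 GMP libraries, 5 held it, beside 16.4% of the 43927 regions of the whole catalogue that were called in all 4. The C/EBP match of the Lcn2 window lies in an exon of another annotated Lcn2 transcript and is not printed. PU.1, GATA and GFI1 matches were found in 2 of the 21 windows each, against 8.44%, 10.3% and 9.75% of all windows. RUNX, ETS and AP-1 letters were in none, against 5.82%, 1.23% and 11.3%. A match describes letters in a window and does not show that a factor binds there.

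Windows of 201 bp around the median summits of 3 distal regions are shown since these regions carried a strong signal in GMPs, the first next to S100a9 in the interval between both S100a genes, and the other 2 outside GMPs as well. They lie at chr3:90686870-90687070 (8.7 kb downstream of the S100a9 TSS, strand -), chr3:90710125-90710325 (14.5 kb upstream of it, strand -) and chr9:110440699-110440899 (21004 bp downstream of the Ngp TSS, in an intron of Klhl18, strand +). The first holds 2 C/EBP matches, and the other 2 hold none of the 7 motifs.
S100a9 8.7 kb downstream: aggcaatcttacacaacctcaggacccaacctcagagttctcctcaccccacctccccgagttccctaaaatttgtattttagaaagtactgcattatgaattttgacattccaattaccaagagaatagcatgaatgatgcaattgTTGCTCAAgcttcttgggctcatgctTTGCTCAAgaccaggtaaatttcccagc
S100a9 14.5 kb upstream: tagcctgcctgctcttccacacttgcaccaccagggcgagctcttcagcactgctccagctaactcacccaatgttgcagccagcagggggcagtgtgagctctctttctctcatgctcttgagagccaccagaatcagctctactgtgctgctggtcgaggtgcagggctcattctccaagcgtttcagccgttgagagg
Ngp 21004 bp downstream: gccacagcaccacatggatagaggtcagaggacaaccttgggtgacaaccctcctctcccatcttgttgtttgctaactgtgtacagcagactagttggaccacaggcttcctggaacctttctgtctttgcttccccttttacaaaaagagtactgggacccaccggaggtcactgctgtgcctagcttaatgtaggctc

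Libraries differed in ways that bear on these regions. GMP libraries held 52576 to 63288 peaks, MEP libraries 9581 to 11041 and all others 27087 to 40157, although the authors had subsampled all libraries to 1 number of reads. At the 5335 regions called in all 36 libraries, fold enrichment, the ratio of the signal to the local background, was higher in GMPs by a median of 0.55 on the log2 scale than in HSCs and MPPs, by 0.48 than in MPP3 and by 0.53 than in CLPs. The smallest peak width was 132 to 139 bp in GMPs and 163 to 191 bp in all other fractions. These differences coincide with the GMP label and cannot be told apart from it, and their part in the results was not tested beyond the alternatives named below. In bulk libraries, few cells with open chromatin and less open chromatin in every cell cannot be told apart either.

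Among 30 libraries that were neither GMPs nor the 2 named next, 0 to 4 of the 21 regions were called. Young MPP3 replicate 2 had 10 called and young MPP4 replicate 2 had 6, against 1 to 3 in the other 6 MPP3 and MPP4 libraries. Over the catalogue these 2 libraries had 33555 and 33538 regions called, and the other 6 had 26220 to 33618. Of the 5 GMP markers with a region at the TSS (Mpo, Elane, Ctsg, Ms4a3 and Cebpe), these 2 libraries had 3 and 2 called, with summed fold enrichment of 19.8 and 13.4. The other MPP3 libraries had 0 to 1 called (sum of 0 to 6.42), the other MPP4 libraries 0, and GMP libraries 4 to 5 (55.8 to 66.9). Of the mature neutrophil markers, only Mmp8 and Il1b had a region at the TSS, and Cxcr2, Ly6g and Retnlg had none in any library. GMP libraries had 1 to 2 of these called (summed fold enrichment 21.3 to 28.6), nearly all of it at Mmp8, which is a late granule gene as well, and the part of maturing neutrophils in the GMP results was not tested. Young MPP3 replicate 2 had Mmp8 called (7.75) and young MPP4 replicate 2 had neither, against 0 to 1 in the other MPP3 and MPP4 libraries. The part of GMP marker signal in the calls of these 2 libraries was not tested. Member regions that rest on their calls are also described without them. Because the 2 libraries were singled out by their calls at member regions, a larger difference without them adds no support.

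The labels were checked against fixed markers. GMP libraries had 4 to 5 of the 5 GMP markers and 4 of 4 monocyte markers with a TSS region called (summed fold enrichment 42.6 to 53.0), whereas HSCs, MPP1, MPP2, MEPs and CLPs had 0 of the 5 GMP markers. Of the 5 HSC markers, HSCs had 2 to 4 and GMPs 3 to 4 called. Of 3 lymphoid markers with a TSS region, CLPs had 2 to 3 and GMPs 2 called. These lists therefore do not separate the labels by calls. Summed fold enrichment of the lymphoid markers was higher in GMPs (21.64 to 30.07) than in CLPs (13.78 to 18.27). For the HSC markers, the sums in GMPs lay within the range of those in HSCs. A high fold enrichment in GMPs was thus not limited to markers of their own lineage. Of 2 mast cell and basophil markers with a TSS region, Mcpt8 was called in all 4 GMP libraries (16.9 to 20.6) and in no other library, and Cpa3 in all HSC, MPP1 and MPP2 and some MPP3 libraries but in no GMP library. The eosinophil marker Prg2 was called in some MPP libraries and in no GMP library, and the part of other granulocytes in the GMP results was not tested. The erythroid markers Gata1, Klf1, Epor and Hba-a1 had no region at the TSS in any library, MEPs included, so the MEP label could not be checked by these markers. With the low number of MEP peaks, the absence of a call in MEPs is not shown to be closed chromatin.

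**Figure D1:**
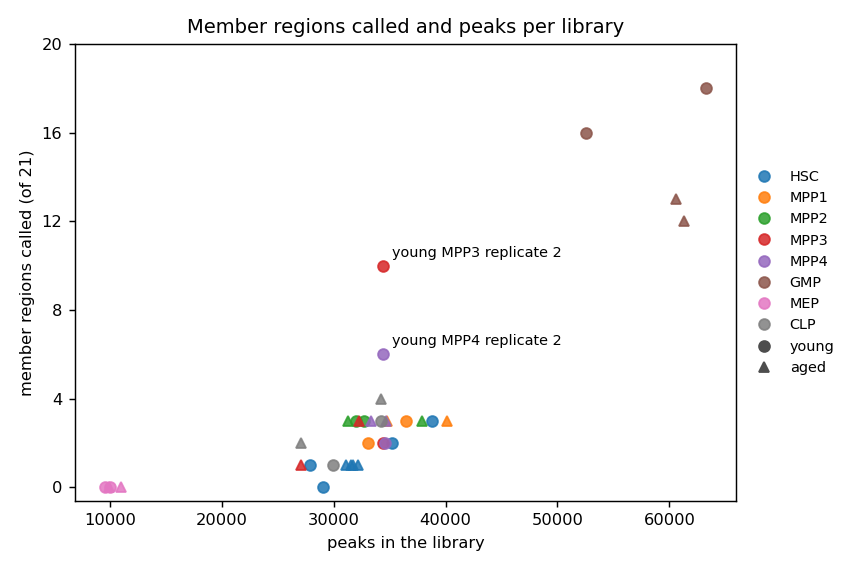
Member regions called (y axis, of 21) against the number of peaks in each of the 36 libraries (x axis), colored by fraction, with circles for young and triangles for aged. GMP libraries called 12 to 18 regions, MEP libraries none, and young MPP3 replicate 2 and young MPP4 replicate 2 lie above the other libraries with a like number of peaks. Young GMP libraries called 16 and 18 of the 21, beside 50850 and 61449 of all 105005 regions. Aged ones called 12 and 13 of the 21, beside 59112 and 58659 of all regions.

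GMPs carried called peaks at most regions of the late genes, and HSCs and MPPs carried few. Of the 21 regions, 12 were called in all 4 GMP libraries, 7 in 1 to 3 of them and 2 in none. Over the whole catalogue, 41.9% of regions were called in all 4 GMP libraries. The TSS regions of S100a8, S100a9, Lcn2, Ngp and Camp, were called in all 4 GMP libraries, whereas that of Ltf was called in 1. No member region was called in MEPs.

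In the comparison of the 4 GMP libraries with the 24 libraries of HSCs and MPPs, 13 of the 21 regions were called more often in GMPs and none less often (Fisher's exact test, adjusted after Benjamini-Hochberg over all 99894 regions tested, threshold 0.05). The same test called 29.5% of all regions more often in GMPs, so the late genes stood among a large part of the catalogue. Of the 13, 8 had calls in GMP libraries only. These 8 entered the catalogue through GMP peaks alone, so their lack of calls in HSCs and MPPs was fixed by the merge. They add no support to the count. The median difference in the share of libraries called was 50 percentage points over the 21 regions and 16.7 over all regions tested. With the 25000 strongest peaks kept per library, which gives every library other than MEPs the same number of peaks, 7 of 21 regions passed, and 6 of these were among the 13. Of the 60794 catalogue regions that still had a call in these libraries, 11.3% passed. Some of the 21, among them every Ltf region, had no call under this setting and were not tested. The 2 shares therefore have unlike bases. Of the 13 regions, 4 were called in 2 of 4 GMP libraries (Fisher's exact test, adjusted p = 0.049997 each). They failed the threshold when any 1 library of HSCs or MPPs or 1 young GMP library was left out, and then 9 regions passed.

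Regions that were called in all 4 GMP libraries and in no other library numbered 5, against 8.81% of the catalogue. They were the TSS regions of Lcn2 and Ngp, the region 9.9 kb downstream of the S100a8 TSS, and those 2.0 kb and 13.3 kb downstream of the S100a9 TSS. Their calls of 4 of 4 GMP libraries and 0 of the 32 others follow from this choice. They are counted among the 13 regions above, and the choice adds no support to that count.

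**Figure D2:**
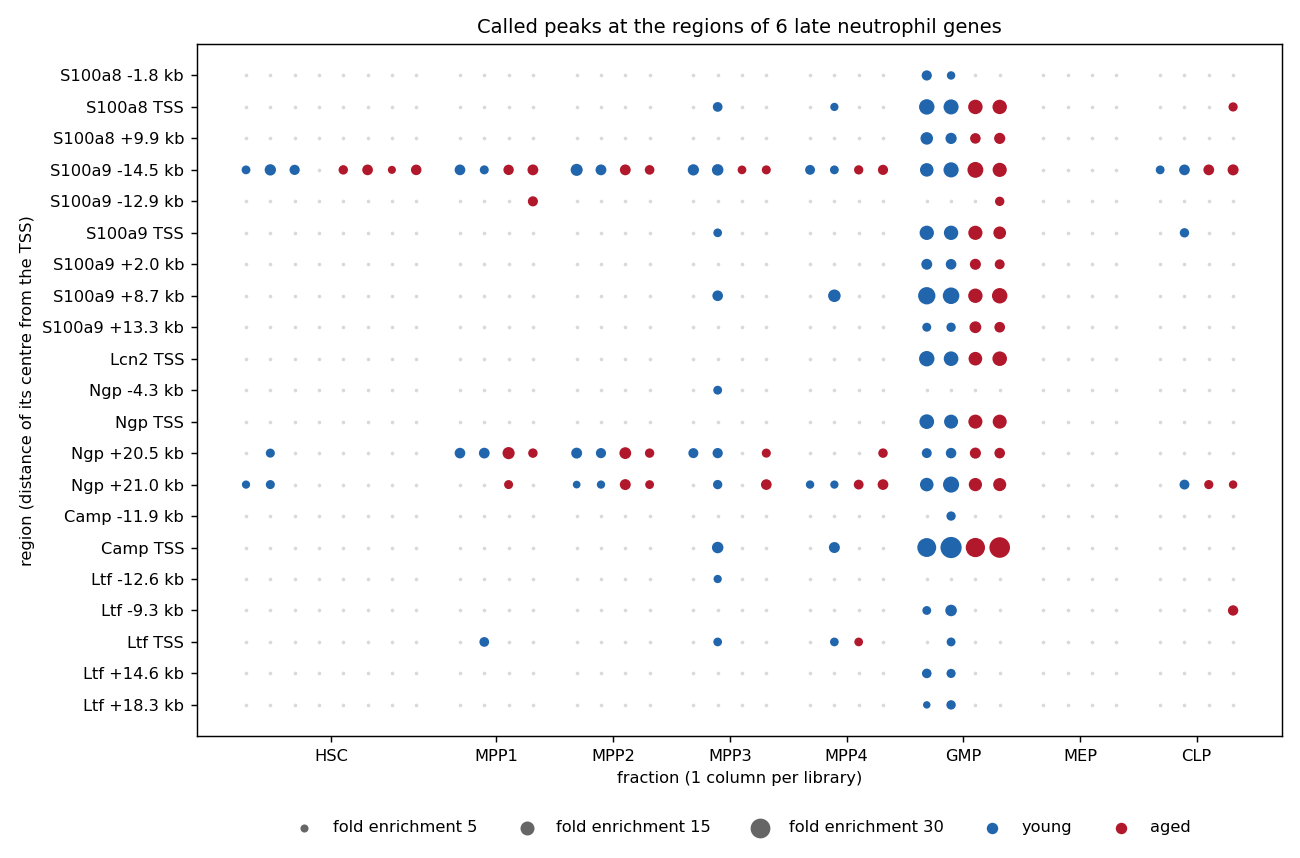
Called peaks at the 21 regions (rows, labelled by the distance of the centre from the TSS) in the 36 libraries (columns, grouped by fraction). The area of a dot is proportional to fold enrichment, blue is young, red is aged, and a grey point means no call. The GMP columns are filled at 12 rows, and outside GMPs 3 rows are filled across many libraries.

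S100a8 encodes a subunit of calprotectin, which binds calcium and zinc and makes up a large part of the neutrophil cytosol. Its TSS region (chr3:90668816-90669254) had fold enrichment of 18.3 and 17.4 in young GMPs and of 16.04 and 15.99 in aged GMPs. Outside GMPs it was called in 3 libraries, with 7.29 in young MPP3 replicate 2, 5.24 in young MPP4 replicate 2 and 6.55 in aged CLP replicate 2. All 4 GMP values lay above these 3. Calls were 4 of 4 in GMPs against 2 of 24 in HSCs and MPPs (Fisher's exact test, adjusted p = 0.00467). These 2 calls were in the libraries singled out by their member calls. The 0 of 22 without the 2 libraries was therefore fixed by that choice and is no further test. The region 9.9 kb downstream (chr3:90678736-90678996), between both genes, had 12.1 and 9.71 in young and 8.58 and 9.58 in aged GMPs and no call elsewhere. The region 1.8 kb upstream (chr3:90667131-90667288) was called in young GMPs only, with 7.996 and 5.48.

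S100a9 encodes its partner. Its TSS region (chr3:90695684-90696018) had fold enrichment of 15.8 and 15.8 in young and of 15.5 and 12.4 in aged GMPs. It was otherwise called in young MPP3 replicate 2 (5.80) and young CLP replicate 2 (6.77), both below every GMP library. Calls in GMPs exceeded those in HSCs and MPPs, with 4 of 4 against 1 of 24 (Fisher's exact test, adjusted p = 0.00176). The 0 of 22 without the 2 libraries was fixed by setting them aside for their member calls and is no further test. The 3 regions between S100a8 and S100a9 were all called in all GMP libraries. The strongest of them, 8.7 kb downstream of the S100a9 TSS (chr3:90686726-90687201), had 23.1 and 21.1 in young and 15.9 and 18.3 in aged GMPs, and 8.69 in young MPP3 replicate 2 and 12.1 in young MPP4 replicate 2. It had no call in the other 30 libraries (4 of 4 against 2 of 24 calls, adjusted p = 0.00467 by Fisher's exact test). Here too, the 0 of 22 without those 2 libraries was fixed by the choice of libraries. The region 13.3 kb downstream (chr3:90682263-90682474) had 6.18 and 6.70 in young and 10.7 and 8.74 in aged GMPs. The intronic region 2.0 kb downstream (chr3:90693564-90693803) had 9.15, 8.70, 9.37 and 7.54 in the 4 GMP libraries. A region 12.9 kb upstream was called in aged MPP1 replicate 2 (7.86) and aged GMP replicate 2 (6.74) alone.

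Lcn2 had a single region, at its TSS (chr2:32387721-32388120). Fold enrichment was 18.2 and 16.5 in young and 14.3 and 16.3 in aged GMPs, and no other library had a call. Within a GMP library this signal stood between the percentiles 69.6 and 83.6 of the fold enrichment of all its peaks.

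Ngp encodes a cathelicidin-like granule protein. Its TSS region (chr9:110419595-110419838) had 16.6 and 15.02 in young and 15.2 and 15.1 in aged GMPs, with no call in the other 32 libraries. The spread over these 4 libraries was small, and the young and aged values overlapped. A region 4.3 kb upstream was called in young MPP3 replicate 2 alone, with 6.03.

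Camp had the strongest TSS region of the 6 genes (chr9:109849421-109849847). Fold enrichment was 27.4 and 34.4 in young and 28.4 and 32.5 in aged GMPs, at percentiles 97.7 to 99.7 within the library, whereas the TSS regions of the other 4 genes called in all GMP libraries lay between 62.6 and 83.9. Outside GMPs it was called in young MPP3 replicate 2 (10.1) and young MPP4 replicate 2 (9.30) and in no other library. Calls in GMPs again exceeded those in HSCs and MPPs (4 of 4 against 2 of 24, Fisher's exact test, adjusted p = 0.00467). The 0 of 22 without both libraries was fixed by setting them aside for their member calls and is no further test. A region 11.9 kb upstream was called in young GMP replicate 2 alone, with 6.65.

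Ltf differed from the other 5 genes. Its TSS region (chr9:111018945-111019331) was called in 1 of 4 GMP libraries, young replicate 2, with a fold enrichment of 6.05 at percentile 15.6 of that library. It was called at a like level in young MPP1 replicate 2 (7.31), young MPP3 replicate 2 (5.83), young MPP4 replicate 2 (5.85) and aged MPP4 replicate 1 (5.82). The difference in calls between GMPs (1 of 4) and HSCs and MPPs (4 of 24) did not pass (Fisher's exact test, adjusted p = 1), nor did it without the 2 libraries (15.9 percentage points, adjusted p = 0.72). A further 3 Ltf regions were called in both young and in no aged GMP libraries, with 5.99 and 10.3 at 9.3 kb upstream, 7.09 and 6.44 at 14.6 kb downstream and 4.27 and 6.79 at 18.3 kb downstream, both of the latter in introns of Ltf. The upstream one was also called in aged CLP replicate 2 (8.25). A region 12.6 kb upstream, in an intron of Gm10030, was called in young MPP3 replicate 2 alone, with 5.28. No Ltf region was called in all 4 GMP libraries.

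**Figure D3:**
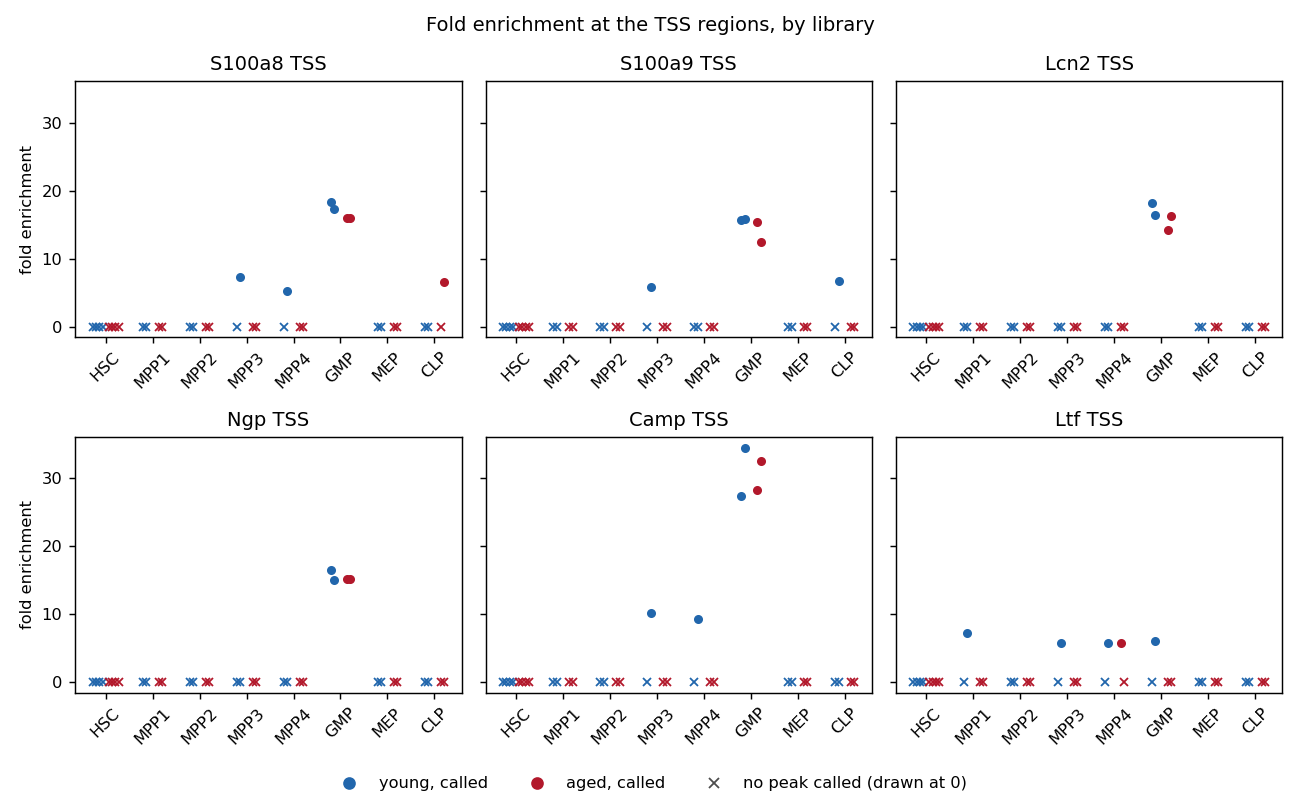
Fold enrichment (y axis) at the TSS region of each gene in every library, by fraction (x axis), in blue for young and red for aged, with crosses at 0 for libraries without a called peak. Camp reaches 27.4 to 34.4 in GMPs, the other 4 genes called in all GMPs 12.4 to 18.3, and Ltf has 5 calls between 5.82 and 7.31, only 1 of them in GMPs.

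At 3 of the regions, peaks were called widely in HSCs and MPPs. The region 14.5 kb upstream of the S100a9 TSS (chr3:90709983-90710532, intergenic) was called in 7 of 8 HSC libraries, all 16 MPP libraries, all 4 CLP and all 4 GMP libraries, and in no MEP library. Among genes of every type it lies nearest to Gm42579, which is not protein-coding. In young HSCs it had 5.98, 9.86 and 8.04 with 1 library not called, and in aged HSCs 6.81, 8.77, 5.01 and 8.54. It had 8.79 and 6.26 in young and 8.27 and 9.04 in aged MPP1, 11.2 and 9.02 in young and 9.01 and 7.14 in aged MPP2, and 7.49 and 5.99 in young and 6.63 and 7.97 in aged MPP4. These values overlapped between the fractions.

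MPP3, the myeloid-biased MPP, had 9.76 and 10.2 in young and 5.83 and 6.23 in aged libraries at the same region, and CLPs had 5.98 and 8.83 in young and 8.91 and 9.35 in aged ones. GMPs had 14.1 and 17.6 in young and 19.3 and 15.4 in aged libraries, above the whole range of the 27 other libraries with a call (5.01 to 11.2). Ordered by the mean over called libraries, GMPs (16.6 ± 2.32, SD, n = 4) were followed by MPP2 (9.09 ± 1.66, n = 4), CLPs (8.27 ± 1.54, n = 4), MPP1 (8.09 ± 1.26, n = 4), MPP3 (8.01 ± 2.30, n = 4), HSCs (7.57 ± 1.71, n = 7) and MPP4 (7.02 ± 0.88, n = 4). Neighbours from MPP2 to MPP4 differed by less than their SD.

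This region was the only one of the 21 that was called in all 8 GMP and MPP3 libraries, so that fold enrichment could be compared. It was higher in GMPs than in MPP3 by 1.09 on the log2 scale (exact permutation test, two-sided, p = 0.02857, the smallest that 4 against 4 libraries allow, adjusted p = 0.049 over 18742 regions). Of those regions 56.4% were called higher in GMPs, and the median difference was 0.52, so a rise in GMPs was the common case. Taken relative to the regions called in all libraries, the difference was 0.61 (exact permutation test, adjusted p = 0.078), which no longer passed, and on leaving out 1 library in turn the call held only without young MPP3 replicate 2 (1.22).

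The remaining widely called regions lie in introns of Klhl18, downstream of Ngp, with their centres 538 bp apart. Klhl18 encodes an adaptor of a ubiquitin ligase. The one 20.5 kb downstream of the Ngp TSS (chr9:110440002-110440423) was called in 1 of 8 HSC, 4 of 4 MPP1, 4 of 4 MPP2, 3 of 4 MPP3, 1 of 4 MPP4, 4 of 4 GMP and 0 of 4 CLP libraries. It had 7.58 and 8.48 in young and 9.48 and 8.62 in aged GMPs, within the 6.29 to 11.3 of the 13 other calls. GMPs lay 0.09 higher on the log2 scale than the called HSC and MPP libraries, which is 0.46 lower when the shift of 0.55 at shared regions is taken off.

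Its neighbour, 21004 bp downstream (chr9:110440532-110440969), behaved otherwise. It was called in 2 of 8 HSC, 1 of 4 MPP1, 4 of 4 MPP2, 2 of 4 MPP3, 4 of 4 MPP4 and 3 of 4 CLP libraries, with 4.58 to 9.20, and had 14.1 and 19.9 in young and 13.5 and 13.1 in aged GMPs. No value outside GMPs reached those of GMPs. GMPs lay 1.22 higher on the log2 scale than the called HSC and MPP libraries, and 0.67 higher beyond the shared shift. By calls, neither of both regions passed between GMPs and HSCs and MPPs (4 of 4 against 13 of 24 each, Fisher's exact test, adjusted p = 0.285, and 0.302 at 20.5 kb and 0.279 at 21004 bp without young MPP3 replicate 2 and young MPP4 replicate 2), whereas the region at 21004 bp passed with peaks of -log10 q of at least 10 and with the 25000 strongest peaks (adjusted p = 0.006732 and 0.0216).

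**Figure D4:**
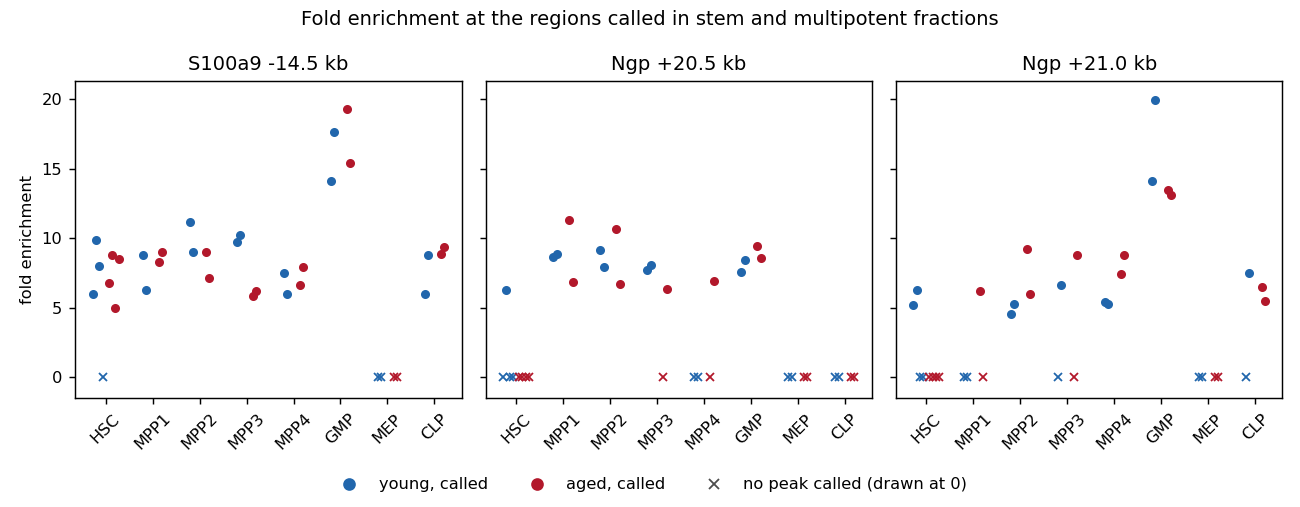
Fold enrichment (y axis) in every library by fraction (x axis) at the 3 regions called in many stem and multipotent libraries, with crosses at 0 where no peak was called. GMPs lie above all other called libraries at the region 14.5 kb upstream of S100a9 and the region 21004 bp downstream of Ngp, and among them at the region 20.5 kb downstream of Ngp.

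In the narrower comparisons with the myeloid-biased MPP3 and with CLPs, no region of the catalogue passed on its calls after adjustment. The smallest p that 4 against 4 libraries allow is 0.02857. The background was 0% of 80425 regions against MPP3 and 0% of 80398 against CLPs (Fisher's exact test, smallest adjusted p = 0.148 and 0.132). At an unadjusted p under 0.05, 5 member regions were called more often in GMPs than in MPP3, and these were the 5 that were called in GMPs alone. They entered the catalogue through GMP peaks only, so their lack of calls in MPP3 was fixed by the merge and is no support. Without young MPP3 replicate 2 the count was 9 (4 of 4 against 0 of 3 libraries, Fisher's exact test, p = 0.02857, adjusted p = 0.129), with the TSS regions of S100a8, S100a9 and Camp and the S100a9 region at 8.7 kb added, and none passed after adjustment. At the added regions that library held the only MPP3 call, and it was set aside for its member calls. The rise from 5 to 9 was therefore fixed by that choice and adds no support. Of all regions, 18.1% reached that level with all MPP3 libraries and 20.7% without this one. Against CLPs the count was 8, which were the 5 called in GMPs alone, the TSS region of Camp, the S100a9 region at 8.7 kb and the Ngp region at 20.5 kb. For the 5 called in GMPs alone, the lack of calls in CLPs was likewise fixed by the merge. Over all regions tested, 14587 were called more often in GMPs than in MPP3 at that level, and 16119 than in CLPs.

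Between ages, no member region was called more or less often over all fractions (exact conditional test with fraction as stratum, 18 aged against 18 young libraries), nor was any of the 105005 regions (0% called, smallest adjusted p = 0.289). No member region had an unadjusted p under 0.05, against 1169 of all regions. All members had an adjusted p of 1.

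Within GMPs, the mean of the aged libraries was lower than that of the young ones at 9 of the 12 regions called in all 4 libraries, beside 43% of the 43975 regions of the catalogue, although 2 against 2 libraries allow no p below 0.333 (exact permutation test). Of 19 regions called in any GMP library, 4 were called in both young and neither aged library, beside 1.33% of 73246 regions, and 0 were called in both aged and neither young library, beside 2.83%. The 4 were the S100a8 region 1.8 kb upstream and the 3 Ltf regions given above, all weak, with fold enrichment between 4.27 and 10.3. The S100a8 region and the Ltf regions 14.6 kb and 18.3 kb downstream had calls in the young GMP libraries alone. Their lack of calls in aged GMPs was fixed by the merge and adds no support. Of the 12 regions called in all 4 libraries, fold enrichment of both aged was below that of both young libraries at 6, beside 13.3% of 43975 regions, and above at 2, beside 20.8%. The median of aged minus young was -0.12 on the log2 scale over the 12 regions and 0.04 over all 43975.

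The 6 lower regions were the TSS regions of S100a8, S100a9 and Lcn2, those at 9.9 kb from S100a8 and 8.7 kb from S100a9, and the Ngp region at 21004 bp. The largest of these differences was at 8.7 kb from S100a9, where the mean was 22.1 in young and 17.1 in aged GMPs (-0.37 on the log2 scale). The 2 higher ones were 13.3 kb from S100a9 (6.44 in young and 9.71 in aged GMPs, 0.59 on the log2 scale) and 20.5 kb from Ngp. At the Camp TSS the ages overlapped (-0.02 on the log2 scale). Each of these differences had the exact p of 0.333 or more and is a description.

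**Figure D5:**
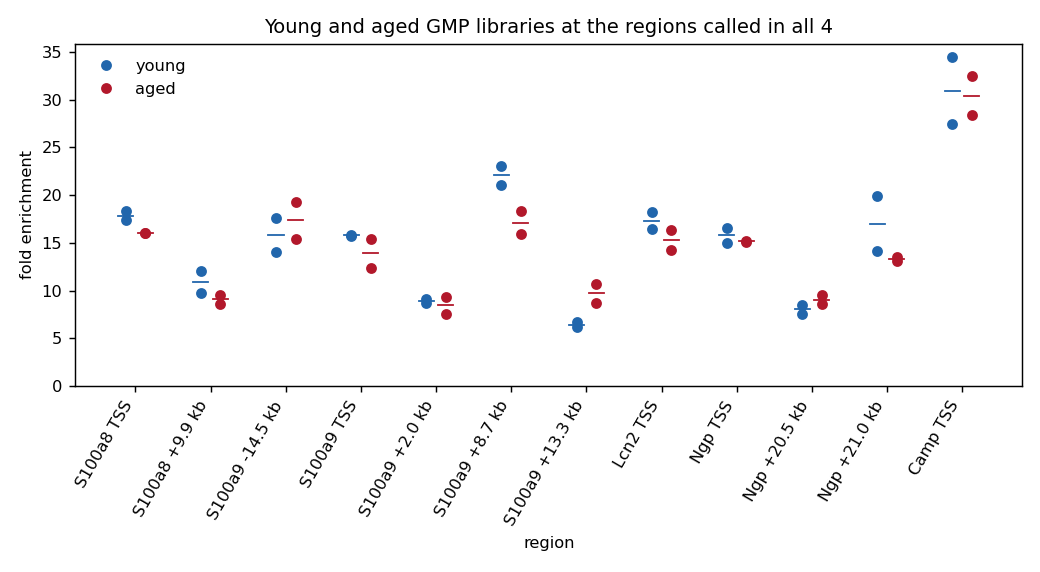
Fold enrichment (y axis) of the 2 young (blue) and 2 aged (red) GMP libraries at the 12 regions called in all 4 (x axis), with lines at the means. Both aged libraries lie below both young ones at 6 regions and above them at 2.

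Other genes of neutrophil maturation gave a mixed picture. Of 29 further late or secondary and tertiary granule genes, taken by the region at the TSS (21 genes) or the nearest assigned region (8 genes), 16 had it called in all 4 GMP libraries, beside 41.9% of all regions, and 4 in none. Called more often in GMPs than in HSCs and MPPs were 16, beside 29.5% of all regions, less often 1, and 11 did not pass, while Wfdc21 had a region called in CLPs only and was not tested. Of the 16, Cd177 and Clec4d were called in 2 of 4 GMP libraries and lie at the threshold (adjusted p = 0.049997 by Fisher's exact test). Among the others were Mmp8, a collagenase of secondary granules (22.4, 22.9, 21.3 and 24.2 in GMPs, 4 of 4 against 2 of 24 calls, Fisher's exact test, adjusted p = 0.00467), and Orm1, an acute phase protein (17.9, 21.9, 16.96 and 17.5, 4 of 4 against 0 of 24, adjusted p = 0.000433). Of the 16, the regions of Orm1, Ltb4r1, Cybb, Mcemp1, Cd177 and Clec4d had calls in GMP libraries alone. Their lack of calls in HSCs and MPPs was fixed by the merge, and they add no support to the count. Hp, which encodes haptoglobin, had 26.4, 27.3, 32.2 and 29.4 (4 of 4 against 2 of 24, Fisher's exact test, adjusted p = 0.00467).

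Olfm4, a secondary granule gene, went the other way, with its TSS region called in 18 of 24 HSC and MPP libraries and 0 of 4 GMP libraries (Fisher's exact test, adjusted p = 0.0398). Ly6g, whose product is bound by anti-Gr-1, had its nearest region called in 1 of 4 GMP libraries. Anxa1 and Pglyrp1 were called in 22 of 24 HSC and MPP libraries as in all 4 GMP libraries. Lyz2, which encodes lysozyme M, was called in 13 of 24 and had 14.8, 16.4, 18.2 and 20.2 in GMPs (Fisher's exact test, adjusted p = 0.285).

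Primary granule genes, whose products are made before the late ones, were taken as Mpo, Elane, Prtn3 and Ctsg, together with the GMP marker Ms4a3. These 5 were called in all 4 GMP libraries, beside 41.9% of all regions. In the direction of GMPs 4 passed, beside 29.5% of all regions. Elane, neutrophil elastase, had 10.8, 9.50, 13.2 and 12.005 and no call in HSCs and MPPs, and Mpo had 9.90, 12.1, 11.7 and 11.2. The Elane region had calls in GMP libraries alone, so its lack of calls elsewhere was fixed by the merge. Ctsg, cathepsin G, had 12.6, 13.2, 13.5 and 15.6, and Ms4a3 had 16.8, 21.7, 19.7 and 21.4. The nearest region of Prtn3, an assigned region away from its TSS, was called in all 24 HSC and MPP libraries. Of 8 regulators, the TSS regions of Cebpa and Cebpd, the nearest region of Spi1 and the TSS region of Klf5 were called in all 24 HSC and MPP and all 4 GMP libraries. Cebpe, the C/EBP factor of secondary granule genes, was called in 3 of 4 GMP libraries (5.75, 7.01 and 6.62, young replicates 1 and 2 and aged replicate 2) and in no HSC or MPP library (Fisher's exact test, adjusted p = 0.00607). The Cebpe region had calls in GMP libraries alone, so the limit given for Orm1 applies to it. Gfi1 was called in 4 of 4 against 5 of 24 libraries (Fisher's exact test, adjusted p = 0.025), and 2 of the 8 regulators passed in all, a share near the 29.5% of all regions.

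Summed over the regions of a gene and correlated over the 36 libraries on the log2(1 + sum) scale, fold enrichment of each member followed the mean of the other 5 with Pearson's r of 0.90 for S100a8, 0.88 for Camp, 0.81 for Lcn2, 0.78 for S100a9, 0.64 for Ngp and 0.56 for Ltf. Among 12736 other protein-coding genes with a region at the TSS, Toe1 (r = 0.95), Snx27 (0.94), Zhx1 (0.94), Gas8 (0.94) and 4930402H24Rik (0.93) came closest to the mean of the 6 members. Each of these 5 had regions called in all 36 libraries, and the median r over all 12736 genes was 0.61. The libraries share the differences in peak number between fractions given above, so these values describe the libraries, and nothing was read from them on the genes.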

How the data were processed

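Members and gene lists were chosen with earlier results of these data known. The authors prepared nuclei from 20000 sorted cells per library, selected fragments of 240 to 360 bp, sequenced 60 bp single reads, aligned to mm10 with Bowtie2, subsampled mapped reads to equal numbers and called peaks per library with MACS2 2.2.6 at a q limit of 0.001. As deposited, column 7 is the fold enrichment over the local background (a ratio) and column 9 is −log10 q. The deposited score in column 5 was not used here. Deposited lists hold no read counts, so depth per library is unknown and no count model was used. The lists hold called peaks only, so no call is not closed chromatin.

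Here, 1204561 peaks (entries with the same interval taken once) of 36 libraries were merged to 105005 regions and assigned by the GENCODE release 21 basic annotation. A region was called in a library if it overlapped a peak there by 1 bp, and its value was the highest column 7. A promoter was 1000 bp before to 100 bp after a TSS. Calls were compared with Fisher's exact test or its stratified form and fold enrichment with the exact permutation test of mean log2 values, all two-sided, with Benjamini-Hochberg adjustment over all regions and a threshold of 0.05. Scripts used Python 3.11.15, numpy 2.4.6, pandas 2.3.3, scipy 1.17.1 and pysam 0.24.0 and were tested on simulated data. Named were the 6 genes with the TSS region and up to 3 more regions each, panel examples, and the 5 genes with the most like pattern. Regions called in few libraries were named beyond this rule after their values were seen. Alternatives were stricter q, 50% cover, 25000 strongest peaks, percentiles, other TSS choices, replicate or age strata and leaving out libraries. Those that centred fold enrichment and set 2 libraries aside were added after seeing the data. Sequences were read from the RefSeq copy of the GRCm38 genome. A marker of the erythroid list is not reported here.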

Additional observations from a re-analysis of the deposited data

Results flagged for a closer look

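Age differences pointed opposite ways in different fractions at 2 regions, and these differences between fractions were not tested. At the region 14.5 kb upstream of the S100a9 TSS, both aged libraries lay below both young ones in MPP2 (-0.325 on the log2 scale of fold enrichment, aged minus young) and in MPP3 (-0.729), and above them in CLPs (0.329). At the region 21004 bp downstream of the Ngp TSS, both aged libraries lay above both young ones in MPP2 (0.593) and MPP4 (0.597), and below them in GMPs (-0.334). Such opposite directions were found at 2 of the 3 member regions called in all libraries of 2 or more fractions, and at 28% of 30756 such regions of the whole catalogue. Each of these groups has 2 libraries per age, so no single comparison can reach a threshold of 0.05 in the exact permutation test.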

How the results depend on the processing

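Against the 13 regions called more often in GMPs than in HSCs and MPPs, 7 passed with the 25000 strongest peaks (6 of the 13 and the Ngp region at 21004 bp, the cause was not tested) and 10 with −log10 q of at least 10 (9 of the 13 and the same Ngp region). Of the 13, 12 passed with 50% cover, 13 with age as stratum, and 9 with young MPP3 replicate 2 and young MPP4 replicate 2 set aside. Leaving out 1 library gave 9 to 13. Against MPP3, against CLPs and between ages, 0 passed under every alternative run (exact tests). The difference between GMPs and MPP3 at the region 14.5 kb upstream of S100a9 did not pass as percentiles within the library (36.7 percentile points, exact permutation test, adjusted p = 0.079) or when centred on shared regions (0.6125 on the log2 scale). It ranged from 0.9502 to 1.2204 on leaving out 1 library, and passed only without young MPP3 replicate 2. Replicate numbers did not pair the libraries (r from -0.0346 to 0.132 over 120 group pairs, with 1 pair over 0.1, young MPP3 with young MPP4, whose replicates 2 stood apart). With the replicate block, 9 regions passed, and the GMP and MPP3 difference stayed at 1.0879 with an exact p of 0.125, the smallest it allows (adjusted p = 0.178).

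No region that passed changed direction. In percentage points, the difference between GMPs and HSCs and MPPs turned at S100a9 12.9 kb upstream to -4.167 with −log10 q of at least 10, with the 25000 strongest peaks and without aged GMP replicate 2 (range on leaving out 1 library -4.167 to 29.167). It turned at S100a9 14.5 kb upstream to -4.167 with 50% cover, at Ngp 20.5 kb downstream to -37.5 with the 25000 strongest peaks, and at the Ltf TSS to -16.667 without young GMP replicate 2 (range -16.667 to 16.667). With TSSs of any gene type, 18 regions were assigned in place of 21. Without read counts, no interval could be set on a fold enrichment.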
